A study of Mus musculus with 6 samples.

Results

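The Spred, Sprouty (Spry) and dual-specificity phosphatase (Dusp) genes described here encode feedback inhibitors of the ERK pathway. They were taken by symbol from the count tables: Spred1, Spred2, Spred3, Spry1, Spry2, Spry4, Dusp1, Dusp4, Dusp5 and Dusp6. All 10 symbols were found once each among 23282 rows, and 7 of the 10 had enough counts to be tested. The samples were hippocampi from C57BL/6 mice, 16 weeks old, of genotype PHF2 t/g (3 libraries) or WT (3 libraries). PHF2 is a histone demethylase; the label is read as a Phf2 transgene, and the sources used here do not give its construct or promoter. The question is which of these inhibitors differ in mRNA level between the genotypes.

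In the ERK pathway, growth factor receptors activate Ras, which starts a chain of kinases, Raf, MEK and ERK. Active ERK switches on transcription factors and also the genes of its own inhibitors, so a burst of signalling limits itself. Spred proteins bring neurofibromin to the membrane to switch Ras off, Sprouty proteins act between the receptor and Raf, and the Dusp phosphatases remove phosphate from the MAP kinases themselves. In the hippocampus this pathway is known for its part in synaptic plasticity and in the transcription that follows neuronal activity.

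RNA was read by QuantSeq, which sequences tags from transcript 3′ ends. Counts therefore do not grow with transcript length, and levels are given as CPM, counts scaled to a common library size with TMM factors, with mean ± SD over n = 3 libraries. The libraries held 5512171 to 8844718 counts each. On the first multidimensional scaling axis WT replicate 2 lay at 1.08 and the other 5 libraries between −0.53 and 0.15. All 14 hippocampal neuron markers passed the low-count filter, but not all were present in each library. Dsp had 0 counts in WT replicate 3 and 2 in PHF2 t/g replicate 3. In CPM, every marker of this list except Wfs1 and Camk2a was lowest in replicate 3 of each group. Fibcd1, for example, was at 40.9, 29.0 and 13.8 CPM in WT and 16.5, 21.2 and 7.88 CPM in PHF2 t/g. The cause was not tested. Phf2 itself was read at 38.3, 35.6 and 39.3 CPM in WT and 35.5, 37.3 and 43.1 CPM in PHF2 t/g, and it did not pass the test (edgeR adjusted p = 0.929). Tags would miss a transgene that lacks the native 3′ end, and Phf2 is thus no check on the genotype. Since the labels do not say that samples came from different animals, p-values measure only the spread among samples, which may be technical.

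Spred2, Dusp6, Spry2 and Dusp1 fell in PHF2 t/g, and no tested member rose. Spred2 fell the most, to 8.86 ± 0.298 CPM from 19.6 ± 0.916 CPM in WT, while Dusp6, Spry2 and Dusp1 were each lower by 29.7% to 31.1%. Spred1, Spred3 and Spry1 did not pass the test, Spry4 and Dusp4 were too sparse to test, and Dusp5 had no counts in any library. A gene was called at an adjusted p under 0.05 by edgeR's quasi-likelihood test over 12831 genes. By that rule 4 of the 7 tested members were called, against 2.27% of all tested genes, and all 4 were lower, against 1.49% of all tested genes called lower. The same 4 members had an unadjusted p under 0.05, against 14.7% of all tested genes. They were also the 4 tested members whose groups did not overlap in CPM, against 20.6% of all tested genes. The members were chosen with earlier results of these data known, so these shares are descriptions only. The median log2 fold change was −0.508 over the tested members and 0.02 over all tested genes. In bulk tissue, fewer cells that express a gene and less of its RNA per cell cannot be told apart.

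**Figure D1:**
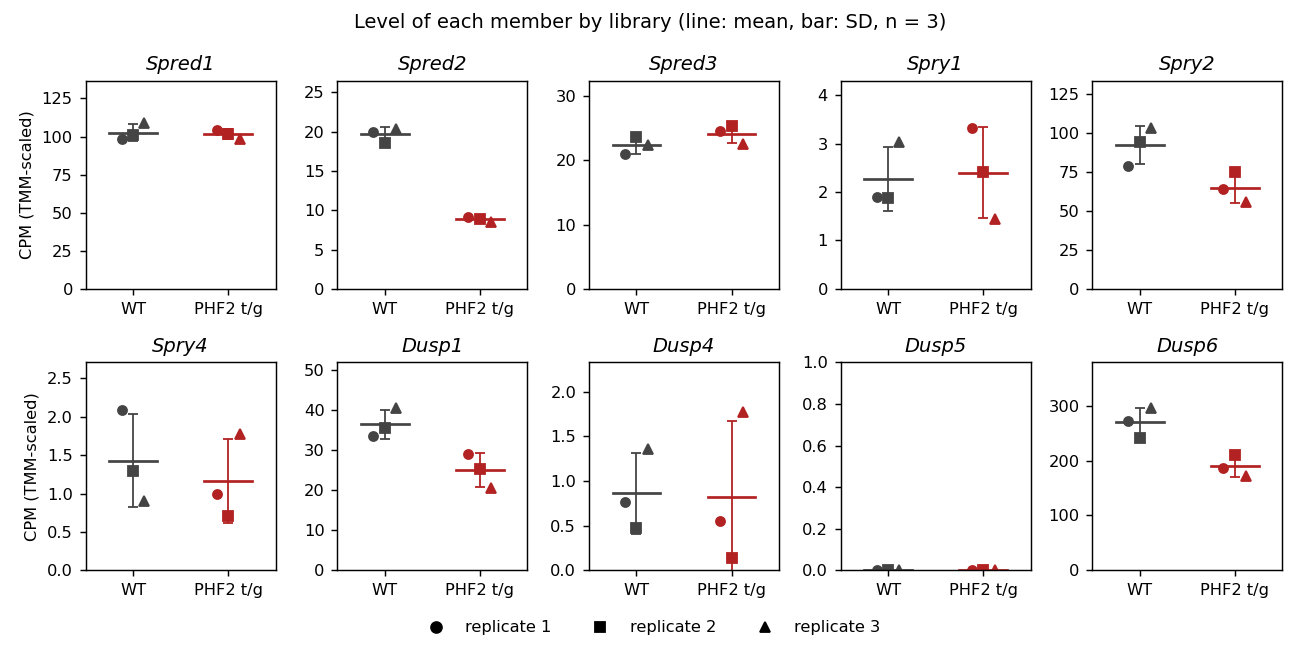
Level of each member in CPM (vertical axis, from 0) in the WT and PHF2 t/g libraries; symbols mark the replicate, lines the mean and bars the SD (n = 3; the bar of Dusp4 is cut off at 0). The PHF2 t/g points lie below all WT points for Spred2, Spry2, Dusp1 and Dusp6, and Dusp5 is at 0 throughout.

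Stretches upstream are shown for the 4 members that were called lower. They come from RefSeq windows of GRCm38.p6, the same assembly as mm10. Of the 10 members, 8 had a window there. The 250 bases before the RefSeq start were searched on both strands for the cAMP response element (TGACGTCA) and its shorter core (TGACG, contained in the first), the AP-1 site (TGANTCA), an ETS core (CGGAAG), the EGR site (GCGNGGGCG), TATAAA and the CArG box. Capitals mark every match, also where it is read on the opposite strand, and positions count back from the base before the start at −1.

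Spred2, chr11:19924383-19924412, plus strand, 30 bases around its matches: tgggaagaCGTCAtcgCTTCCGccctactt

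Dusp6, chr10:99262981-99263230, plus strand: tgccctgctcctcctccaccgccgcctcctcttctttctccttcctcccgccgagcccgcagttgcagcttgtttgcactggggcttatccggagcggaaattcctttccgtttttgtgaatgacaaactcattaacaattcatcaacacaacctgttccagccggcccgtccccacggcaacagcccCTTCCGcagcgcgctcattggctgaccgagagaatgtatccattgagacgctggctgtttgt

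Spry2, chr14:105896820-105897069, minus strand: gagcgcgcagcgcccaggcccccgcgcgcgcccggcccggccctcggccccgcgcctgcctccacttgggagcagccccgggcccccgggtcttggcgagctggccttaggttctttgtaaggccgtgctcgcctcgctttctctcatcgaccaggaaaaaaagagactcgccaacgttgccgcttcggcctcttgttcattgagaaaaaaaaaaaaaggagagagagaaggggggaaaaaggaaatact

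Dusp1, chr17:26508520-26508722, minus strand: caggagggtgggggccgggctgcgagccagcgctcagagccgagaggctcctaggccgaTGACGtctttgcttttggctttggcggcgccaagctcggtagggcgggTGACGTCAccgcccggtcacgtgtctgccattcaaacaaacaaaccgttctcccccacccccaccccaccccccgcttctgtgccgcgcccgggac

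The 4 windows had no motif in common. Dusp1 held a full cAMP response element whose first base is at −143, a sequence found in 1.55% of the 32851 windows of this length in the table, and a further TGACG at −191. Spred2 held TGACG at −51, found in 17.8% of all windows, next to an ETS core at −43, found in 13.6%. Dusp6 held an ETS core at −62, as did Spred1, which did not pass the test, at −17. The Spry2 window held no match to the motifs searched. For Spred2 the matches lie past the start of a longer GENCODE M21 transcript, whose first base is at −67. These matches are descriptions of the sequence only.

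The Spred genes lie on different chromosomes and code for inhibitors that act on Ras through neurofibromin. Spred2 (chromosome 11, 19924442 to 20024026, plus strand, GRCm38.p6) was at 20.0, 18.6 and 20.3 CPM in the WT libraries, from 105, 158 and 134 counts. In PHF2 t/g it was at 9.10, 8.95 and 8.53 CPM, from 82, 63 and 53 counts. The groups did not overlap, and the highest PHF2 t/g library lay at 49.0% of the lowest WT library. The log2 fold change was −1.14 (SE 0.151, 95% interval −1.46 to −0.82), a 2.20-fold decrease (edgeR adjusted p = 3.35e-04). Its p was the 18th smallest of all tested genes. Spred2 is called with each library left out in turn, with a log2 fold change of −1.20 to −1.04 over 15 other ways of processing and an adjusted p of at most 0.011.

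Spred1 (chromosome 2, 117121071 to 117182279), the most abundant Spred transcript here, was at 98.4, 101 and 109 CPM in WT and 104, 102 and 98.5 CPM in PHF2 t/g. The groups overlapped. Its log2 fold change was −0.015 with a 95% interval of −0.19 to 0.16 (edgeR adjusted p = 0.954), and its sign turned with library size alone and without PHF2 t/g replicate 3 or WT replicate 3. Spred3 (chromosome 7, 29157783 to 29170070) was at 20.9, 23.6 and 22.4 CPM in WT and 24.5, 25.4 and 22.5 CPM in PHF2 t/g, again with overlap. Its log2 fold change was 0.11 (95% interval −0.15 to 0.38; edgeR adjusted p = 0.738).

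A share within the Spred genes does not depend on how the libraries are scaled. Spred2 made up 14.3%, 13.0% and 13.4% of Spred1, Spred2 and Spred3 counts in the WT libraries. It made up 6.59%, 6.56% and 6.58% in the PHF2 t/g libraries. The means were 13.6% ± 0.707 and 6.58% ± 0.0151, a difference of −6.99 percentage points. The groups did not overlap, and with 3 against 3 libraries an exact two-sided permutation test then always gives its smallest p, 0.1. The share rests on the same counts as the edgeR test of Spred2 and is no separate support. The share does not show that Spred1 and Spred3 were constant.

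Of the Sprouty genes, whose products act between receptor and Raf, Spry2 was by far the most abundant. Spry2 (chromosome 14, 105891947 to 105896819, minus strand) was at 79.0, 94.2 and 103 CPM in WT and at 64.0, 74.7 and 55.7 CPM in PHF2 t/g. The groups did not overlap, but the gap between the highest PHF2 t/g library and the lowest WT library was smaller than the range within either group. The log2 fold change was −0.51 (SE 0.118, 95% interval −0.76 to −0.26; edgeR adjusted p = 0.0339). Spry2 was no longer called without PHF2 t/g replicate 1 (adjusted p = 0.25), PHF2 t/g replicate 3 (0.142), WT replicate 3 (0.106) or the pair of WT replicate 2 with PHF2 t/g replicate 1 (0.187). Scaling by library size alone (0.1), limma-voom (0.0714) and a fit that was not robust (0.072) also ended the call. Over all alternatives its adjusted p ran from 1.06e-04 to 0.25, with the log2 fold change below 0 in each.

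Spry1 (chromosome 3, 37639947 to 37644599) was near the lower limit of what could be tested, with 10, 16 and 20 counts in WT and 30, 17 and 9 in PHF2 t/g. Its level was 2.27 ± 0.655 CPM in WT and 2.40 ± 0.941 CPM in PHF2 t/g. The 95% interval of the log2 fold change, −0.65 to 0.90, is too wide to tell a change of the size seen in Spry2 from none, and the sign turned without PHF2 t/g replicate 1 or WT replicate 2. Spry4 (chromosome 18, 38586247 to 38601347) did not pass the low-count filter, with 11, 11 and 6 counts in WT and 9, 5 and 11 in PHF2 t/g. Scaled by library size with TMM factors, the ratio of the PHF2 t/g to the WT sum was 0.817. Its 95% exact counting interval, 0.457 to 1.45, covers counting error only.

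The Dusp members are MAP kinase phosphatases. Dusp6 is a cytoplasmic phosphatase selective for ERK, whereas the nuclear Dusp1 also acts on p38 and JNK, and is transcribed within minutes of many stimuli. Dusp6 (chromosome 10, 99263231 to 99267489, plus strand) was the most abundant member, at 271, 242 and 296 CPM in WT and 187, 209.7 and 171 CPM in PHF2 t/g. All PHF2 t/g libraries lay below all WT libraries, but, as for Spry2, the gap between the groups was smaller than the range within either. The log2 fold change was −0.51 (SE 0.092, 95% interval −0.70 to −0.31; edgeR adjusted p = 0.00584). Dusp6 lost its call without PHF2 t/g replicate 1 (adjusted p = 0.0984) or PHF2 t/g replicate 3 (0.0506), in a range of 1.25e-06 to 0.0984 over all alternatives.

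Dusp1 (chromosome 17, 26505591 to 26508472, minus strand) was at 33.5, 35.6 and 40.6 CPM in WT and 29.2, 25.4 and 20.6 CPM in PHF2 t/g, without overlap. Here too the gap between the groups was smaller than the range within either. The log2 fold change was −0.54 (SE 0.135, 95% interval −0.82 to −0.25; edgeR adjusted p = 0.0433), so Dusp1 lay closest to the threshold of the 4 called members. Leaving out any PHF2 t/g library ended the call (adjusted p = 0.0907, 0.166 and 0.203 without replicate 1, 2 and 3) as did leaving out WT replicate 3 (0.128). It also ended with library size alone (0.11), limma-voom (0.0876), a fit that was not robust (0.0868) and the replicate number as a block (0.0525). The log2 fold change stayed below 0 in each of these fits. Exons of the GENCODE M21 Dusp1 locus overlap with exons of Ergic1 on the opposite strand, a gene with 4450 counts over the 6 libraries. Whether the counting used strand was not stated, so reads from the shared bases cannot be assigned to either gene. No exon of another gene lies within 1000 bases of the RefSeq 3′ end of Dusp1, the end from which tags are read. How many tags came from the shared bases was not tested. In Dusp6, Spry2 and Dusp1 alike the highest WT library was replicate 3 and the lowest PHF2 t/g library was replicate 3.

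Dusp4 (chromosome 8, 34807610 to 34819894), a nuclear phosphatase, had 4, 4 and 9 counts in WT and 5, 1 and 11 in PHF2 t/g. Its summed ratio was 0.915, with a 95% exact counting interval of 0.439 to 1.91. Dusp5 (chromosome 19, 53529145 to 53541809), a nuclear phosphatase selective for ERK, had 0 counts in the 6 libraries, which allows up to 3 counts over each group, or 0.147 CPM in WT and 0.135 CPM in PHF2 t/g. Tags that fall outside the annotated gene are missed, so a count of 0 limits the tags assigned to Dusp5 and not its expression.

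**Figure D2:**
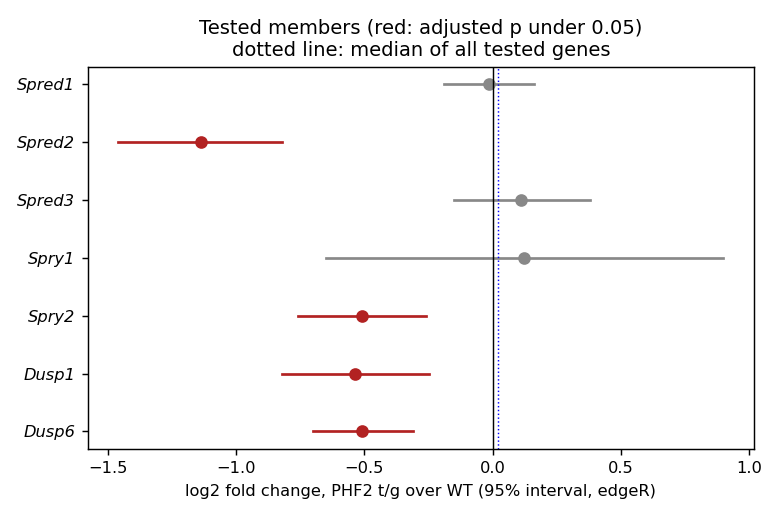
Log2 fold change of PHF2 t/g over WT (horizontal axis) for the 7 tested members, with 95% intervals from edgeR; members with an adjusted p under 0.05 are in red and the dotted line is the median of all tested genes (0.02). Spred2 is farthest from 0 at −1.14; Spry2, Dusp1 and Dusp6 lie between −0.54 and −0.51.

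The members had the same order of mean level in both genotypes. In WT it ran Dusp6 (269.5 ± 27.0 CPM), Spred1 (103 ± 5.31), Spry2 (92.0 ± 12.1), Dusp1 (36.6 ± 3.62), Spred3 (22.3 ± 1.34), Spred2, Spry1, Spry4, Dusp4 and Dusp5. Among neighbours in that order, the libraries of Spred1 and Spry2, of Spry1 and Spry4, and of Spry4 and Dusp4 overlapped. In PHF2 t/g Spred1 (102 ± 3.02 CPM) stood apart from Spry2 (64.8 ± 9.54), and Dusp1 (25.1 ± 4.31) overlapped with Spred3 (24.2 ± 1.48). Dusp6 held 49.2% of the summed WT level and 45.3% of the summed PHF2 t/g level. The sum over the 10 members was 518 to 596 CPM in WT libraries and 382 to 449 CPM in PHF2 t/g libraries.

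By the size of each library's deviation, the genes most like Spred2 over the 6 libraries were Gm17751, Snord89, Junb, 1700034G24Rik and Cbln1. The measure was the root mean square difference of log2 CPM centred on each gene, and it was 0.136 to 0.165 for these 5. For the other called members it was 0.318 (Dusp6), 0.319 (Dusp1) and 0.346 (Spry2), at places 105, 109 and 162 of 12829 genes. Junb, an AP-1 subunit, was at 188, 202 and 236 CPM in WT and 109, 122 and 103 CPM in PHF2 t/g. These genes were picked for the likeness of their pattern, so no test of their own differences is given here. The closest, Gm17751, had only 4 counts in each PHF2 t/g library and 9, 13 and 11 in WT. Counting error is thus large in its pattern. Tags of Snord89, a small nucleolar RNA, can come from its host gene.

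The rest of the pathway was described from lists of genes by role. For comparison with the counts below, 100 of 12831 tested genes were called higher and 191 lower. Among 27 ligands of receptor tyrosine kinases, 18 were tested, 1 rose, 0 fell and 17 did not pass. The median log2 fold change of the list was 0.119, and it was 0.22 with library size alone and 0.02 without WT replicate 2, where 8 of the 18 lay below 0. The gene that rose was Vegfa, the endothelial growth factor, from 51.2, 46.5 and 53.1 CPM in WT to 80.7, 81.2 and 76.6 CPM in PHF2 t/g. The difference on the log2 scale was 0.66 (SE 0.097; edgeR adjusted p = 9.08e-04). Bdnf, the main ligand of TrkB, was at 120.3 ± 14.3 CPM in WT and 95.9 ± 6.50 CPM in PHF2 t/g and did not pass (edgeR adjusted p = 0.0931). Without WT replicate 2 Bdnf was called lower (edgeR adjusted p = 0.00506). It was also called with PHF2 t/g replicate 1 left out as well (0.0364) and without the low-count filter (0.0274). Its adjusted p ran from 0.00506 to 0.336 over all alternatives.

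Among 24 receptor tyrosine kinases, 18 were tested, 1 rose, 0 fell and 17 did not pass (median 0.098, or 0.20 with library size alone). Flt1, a receptor of Vegfa found on endothelium, rose from 40.6 ± 3.91 to 56.6 ± 3.40 CPM (log2 fold change 0.48, edgeR adjusted p = 0.0223). The Flt1 call ended without PHF2 t/g replicate 1 (adjusted p = 0.199), 2 (0.105) or 3 (0.0576) or WT replicate 3 (0.0848). It also ended with WT replicate 2 and PHF2 t/g replicate 1 both left out (0.123) and in a fit that was not robust (0.0507). The largest adjusted p of Flt1 over the alternatives was 0.199. Ntrk2, which encodes TrkB, was at 469.7 ± 10.4 CPM in WT and 464 ± 13.8 CPM in PHF2 t/g (edgeR adjusted p = 0.937).

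No gene of the cascade itself was called. Of 30 listed genes from adaptors and Ras to ERK, 28 were tested and none passed by edgeR. An unadjusted p under 0.05 was found for 4 of the 28, a share near the 14.7% of all tested genes. The median log2 fold change was 0 with 14 of 28 genes below 0, and with library size alone it was 0.10 with 7 of 28 below 0. Sos1, an exchange factor that loads Ras, had the smallest p (30.8 ± 4.19 CPM in WT, 38.4 ± 2.16 in PHF2 t/g; edgeR adjusted p = 0.202), followed by the kinase Araf (45.4 ± 7.75 and 35.5 ± 5.98; 0.243). Of 11 JNK and p38 kinases and their activators, 10 were tested and none passed, 2 with an unadjusted p under 0.05, at a median of 0, or 0.10 with library size alone. These were Mapk10 (log2 fold change −0.23) and Mapk9 (−0.18), both JNK kinases. DESeq2 and limma-voom called none in either list.

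No other inhibitor of Ras-ERK signalling was called. Of 19 listed, among them Nf1, Rasa1 and Spry3, 15 were tested and none passed by edgeR, 2 with an unadjusted p under 0.05. The median log2 fold change was 0.138, but it was 0 without WT replicate 2, 0.02 without PHF2 t/g replicate 3 and 0.24 with library size alone. The smallest p were those of Pebp1, which binds Raf (699 ± 28.8 CPM in WT, 597 ± 14.1 in PHF2 t/g; edgeR adjusted p = 0.124), and Pea15a, which holds ERK in the cytoplasm (296 ± 21.3 and 260.5 ± 7.87; 0.262). Without WT replicate 3 Lrig1, an inhibitor of receptors of the EGF family, was called higher (edgeR adjusted p = 0.043). Of 18 other dual-specificity phosphatases, 16 were tested, 1 fell, 0 rose and 15 did not pass (median −0.108, or −0.01 with library size alone). Dusp14 fell from 84.7 ± 4.58 to 65.5 ± 4.57 CPM (edgeR adjusted p = 0.0482), a call that ended without any 1 library other than WT replicate 2 (adjusted p 0.0853 to 0.244). Library size alone (0.147), limma-voom (0.077) and a fit that was not robust (0.0776) ended it too.

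Transcription factors and target genes that depend on ERK had the most calls of the pathway lists. Of 29 listed, 26 were tested, 7 fell, against 1.49% of all tested genes called lower, 0 rose and 19 did not pass. This list too was chosen with earlier results of these data known, so the share is a description only. The median log2 fold change was −0.165. With library size alone 5 fell and the median was −0.06. Egr4, Junb, Egr2 and Ier5, all of them genes switched on quickly by activity, had the smallest p. Egr2 was at 22.8, 15.7 and 24.8 CPM in WT and at 10.4, 8.66 and 9.01 CPM in PHF2 t/g, with a log2 fold change of −1.15 (SE 0.181; edgeR adjusted p = 0.00164). Egr1, at 1122, 862 and 1202 CPM in WT and 739, 641 and 714 CPM in PHF2 t/g, was also lower (edgeR adjusted p = 0.0164), a call that leaving out any PHF2 t/g library (0.0839 to 0.0984) or scaling by library size alone (0.0558) ended. Ier5 was at 464, 598 and 567 CPM in WT and 349, 394 and 339 CPM in PHF2 t/g (edgeR adjusted p = 0.00239), a call lost without PHF2 t/g replicate 1 (0.064). Fos was at 35.0, 18.1 and 47.5 CPM in WT and 27.0, 23.3 and 29.0 CPM in PHF2 t/g, with overlap (log2 fold change −0.33, edgeR adjusted p = 0.769). Which WT library was left out decided the value for Fos. It was called lower without WT replicate 2 (log2 fold change −0.65, edgeR adjusted p = 0.00342) and with PHF2 t/g replicate 1 left out as well (−0.67, 0.0434), but its log2 fold change was 0.02 without WT replicate 3. The number that fell in this list was 3, 4 or 5 without PHF2 t/g replicate 1, 2 or 3, and 9 without WT replicate 2.

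**Figure D3:**
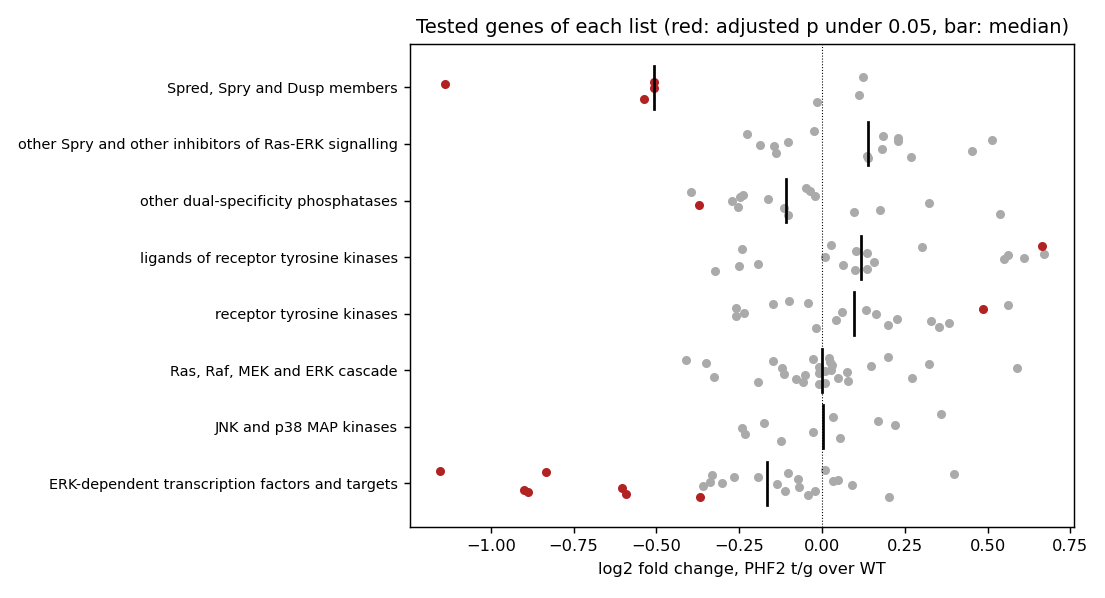
Log2 fold change of PHF2 t/g over WT (horizontal axis) for every tested gene of each list; each point is a gene, red where the adjusted p is under 0.05, and the bar is the list's median. Red points below 0 are in the members, the other dual-specificity phosphatases (Dusp14) and the ERK-dependent genes, and those above 0 are Vegfa and Flt1.

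Markers of other tissue and cell types differed between the same libraries, and their part in the values of the members was not tested. The summed level of 14 hypothalamus markers was 74.8 to 84.6 CPM in WT and 130.2 to 140.0 CPM in PHF2 t/g. Of 8 tested, 5 were higher, Avp, Oxt, Trh and Six3 first among them, against 100 of 12831 among all tested genes. The other 3 lay below 0 and were not called, among them Hdc (log2 fold change −0.99, edgeR adjusted p = 0.0946). For 11 striatum markers the sum was 596 to 675 and 766 to 886 CPM (3 of 9 higher: Tac1, Penk and Rgs9, with 1 below 0, Adora2a). For 9 meninges markers it was 81.0 to 109 and 164 to 183 CPM (1 of 8 higher: Mgp). For 13 markers of endothelium and mural cells it was 129.7 to 156 and 164 to 175 CPM, with Vwf and Flt1 higher among 13 tested. The 14 hippocampal neuron markers summed to 4112 to 4629 CPM in WT and 3401 to 4034 CPM in PHF2 t/g, with Wfs1 higher and no gene lower. Most of this sum was Camk2a, at 3214 ± 202.6 CPM in WT and 2669.4 ± 200.8 in PHF2 t/g (edgeR adjusted p = 0.0978). The median log2 fold change of these markers was −0.099, with 8 of 14 below 0. Of 10 oligodendrocyte markers Opalin and Mag were lower, with sums that overlapped, and none of 10 astrocyte and 9 microglia markers was called. Some of these marker calls depended on the processing. The Mag call (edgeR adjusted p = 0.0465) ended without any 1 library other than WT replicate 3 (0.0527 to 0.324) and with library size alone (0.131), limma-voom (0.104), a fit that was not robust (0.088) or the replicate block (0.0517). The Rgs9 call (edgeR adjusted p = 0.0248) ended without any 1 library other than WT replicate 2 (0.0551 to 0.144), by limma-voom (0.055) and in a fit that was not robust (0.0529). The Wfs1 call (edgeR adjusted p = 0.0191) was lost when WT replicate 3 (0.0682) or a single PHF2 t/g library (0.0594 to 0.185) was dropped, and when WT replicate 2 was dropped together with PHF2 t/g replicate 1 (0.0669). Without PHF2 t/g replicate 1, Six3 (edgeR adjusted p = 0.0984), Trh (0.0753) and Vwf (0.064) were not called either. The choroid plexus markers summed to 321 CPM in PHF2 t/g replicate 1 and to at most 12.4 CPM in the other 5 libraries. No marker in these lists was at 0 in all libraries.

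**Figure D4:**
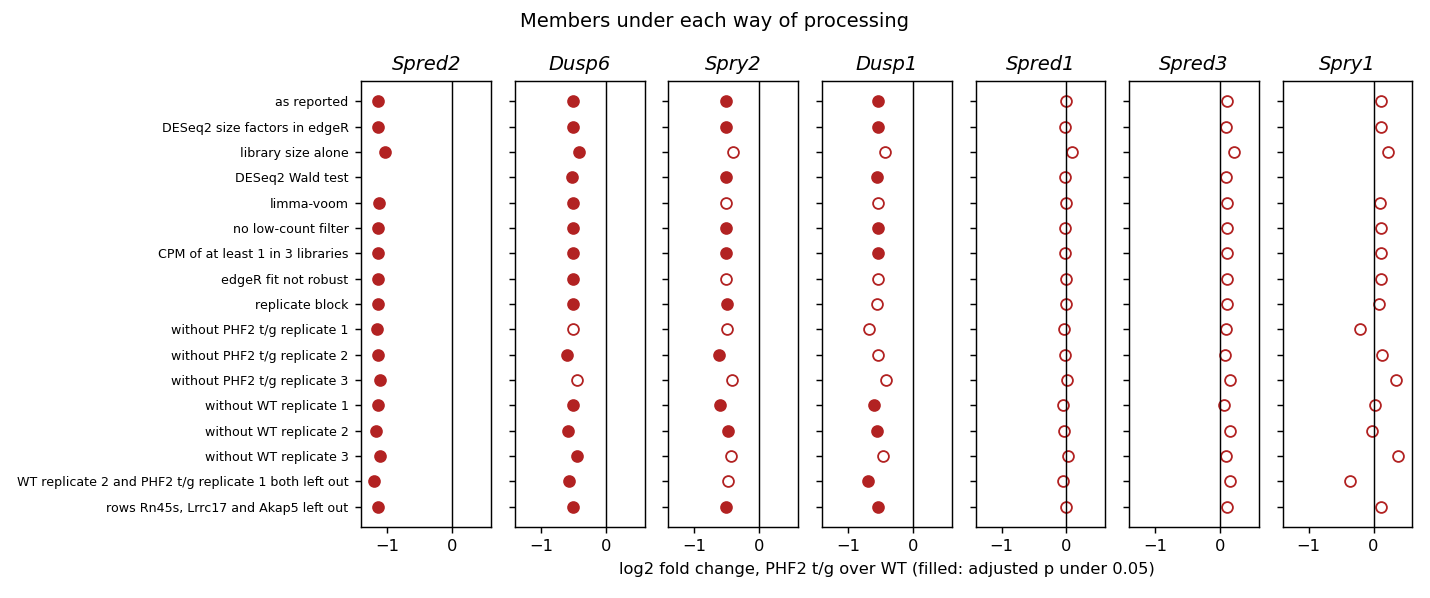
Log2 fold change of PHF2 t/g over WT (horizontal axis) of each tested member under each way of processing (rows); filled points have an adjusted p under 0.05, and DESeq2 gave no adjusted p for Spred2 and Spry1. Spred2 stays between −1.20 and −1.04, while the points of Dusp6, Spry2 and Dusp1 remain below 0 with calls that come and go.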

How the data were processed

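Hippocampal RNA of 3 PHF2 t/g and 3 WT samples was extracted with Trizol and made into QuantSeq libraries, per the labels' protocols. The authors deposited raw counts per gene symbol, 1 table per library. Bowtie2, edgeR and mm10 are named in the submitters' processing notes; versions, counting program, annotation and use of strand were not stated.

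Groups came from the sample titles. Rows were kept by filterByExpr, scaled by TMM and tested with edgeR 4.0.16 in R 4.3.3 (robust quasi-likelihood fit, genotype as the only term, Benjamini-Hochberg over 12831 rows, threshold 0.05). Standard errors were derived from the F statistic. Log2 CPM used a prior count of 2. The procedure was tested on simulated data. The members and gene lists were chosen with earlier results of these data known.

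Named genes were the members; in each pathway list up to 4 called genes, otherwise the 2 with the smallest p; called genes of the marker lists (up to 4); Phf2, Fos, Egr1, Bdnf and Ntrk2; and the 5 genes most like the member with the smallest p. Alternatives were other scalings, filters and tools (DESeq2 1.42.0, limma-voom in limma 3.58.1), a replicate block, leaving out libraries, and leaving out the rows Rn45s, Lrrc17 and Akap5. GENCODE M21 has no exon of another gene within 1000 bases of the RefSeq 3′ end of 7 members. For Spred3 it has an exon of 1110035H17Rik there, for Spry1 of Gm43820, and for Dusp6 of Gm34921 and Gm48089. Counts of these neighbours were not examined. Away from the 3′ end, exons of Dusp1 overlap with Ergic1 and those of Spred3 with Ggn (5 counts), on the opposite strand.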

Additional observations from a re-analysis of the deposited data

How the results depend on the processing

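Of the members, 2 were called with library size alone, 2 by limma-voom, 2 with a fit that was not robust, and 1 to 4 with 1 library left out. They were Spred2 and Dusp6 where 2 were called, and Spred2 where 1 was called (without PHF2 t/g replicate 1 or 3). Over all genes the count of 291 became 162 by limma-voom, 149 with a fit that was not robust, 606 without the low-count filter and 140 when WT replicate 2 was left out together with PHF2 t/g replicate 1. It was 49 to 392 with 1 library left out, the lowest without PHF2 t/g replicate 1. The share of higher genes among the calls was 34.4% with TMM, 19.0% by DESeq2 and 74.7% with library size alone, which moved the median log2 difference over genes from 0.02 to 0.121. Spred1 changed sign with library size alone (0.09), without PHF2 t/g replicate 3 (0.01) and without WT replicate 3 (0.02), in a range of −0.05 to 0.02 with 1 library left out. Spry1 changed sign without PHF2 t/g replicate 1 (−0.21), WT replicate 2 (−0.02) or with WT replicate 2 and PHF2 t/g replicate 1 both left out (−0.36), and ran from −0.21 to 0.37 with 1 library left out. The cause was not tested. DESeq2 gave Spred2 no adjusted p (log2 fold change −1.15, unadjusted p = 5.69e-08).

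With the replicate number as a block, 299 genes and 3 members were called, Dusp1 being lost. Deviations of same-numbered libraries correlated at −0.00445, 0.123 and 0.0846. WT replicates 2 and 3 correlated best with PHF2 t/g libraries of their own number and WT replicate 1 with replicate 3, and the labels do not say whether a number marks a shared litter or day. Depth limits Spry1, Spry4, Dusp4 and Dusp5.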

Other observations

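The upstream window of Dusp5, the member with no counts, held 2 CArG boxes (first bases at −82 and −72), a motif found in 1.47% of the 32851 windows searched. It was the 1 window with a CArG box among the 8 members that had a window. Spry3, which is not among the members, also had no counts in any library.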
